A study of Mus musculus with 30 samples.

Results

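Genes that carry a cell through mitosis, from the kinetochore to cytokinesis, were followed in mouse microglia, the resident macrophages of the brain, before birth, after birth and after microglia had been depleted and allowed to return. The genes were chosen by name and not by a measured value, although earlier results of these data were known. They are the rows of the table whose symbol starts with Cenp followed by a letter or reads Spc24 or Spc25, together with 45 listed symbols. Of the listed symbols, 40 had a row and 5 (Ect2, Tacc3, Ska1, Prc1 and Cep55) had none, and another 16 rows came from the Cenp and Spc names, among which Cenpa and Spc25 had no row. This gave 56 transcripts of 56 genes among the 14225 transcripts of the table, and none of the 56 was at 0 in every library.

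RNA of microglia that had been isolated from the whole brain of C57BL/6J mice with magnetic CD11B beads was sequenced in 30 libraries that made up 10 groups of 3. The dams had received saline (Saline) or poly(I:C), a double-stranded RNA that mimics a viral infection (MIA, for maternal immune activation), early in gestation, and Saline and MIA offspring were taken at E17, P7, P20 and P60. At P60 the offspring had been fed control chow (Saline + CTRL and MIA + CTRL), or chow with PLX5622, an inhibitor of the CSF1 receptor on which microglia depend for survival, and then control chow, so that microglia repopulated the brain (Saline + MG-REP and MIA + MG-REP). A library stood for 1 litter at E17, for 3 pooled brains at P7 and for 1 brain at P20 and P60, with animals of both sexes in the study, and the labels name no transgene. CD11B is also carried by monocytes, neutrophils and the macrophages of the brain borders, and PLX5622 acts on any cell that needs the CSF1 receptor.

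When a cell divides, condensins and topoisomerase II compact and untangle the chromosomes, the inner kinetochore proteins of the Cenp family sit on the centromere, and the outer kinetochore (Ndc80, Nuf2 and Spc24 among others) grips the spindle microtubules. The spindle checkpoint holds the cell until every kinetochore is attached, after which the anaphase-promoting complex, with its activator Cdc20 and its ubiquitin-conjugating enzyme Ube2c, lets the sister chromatids part, and motors such as Kif23, with Anln and Racgap1, divide the cytoplasm. Most of these genes are transcribed from the G2 phase to mitosis, so their RNA marks cycling cells. Microglia are known to divide in the embryonic and early postnatal brain, to divide rarely in the adult, and to divide again when they refill a depleted brain.

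The estimated depth was 7990000 to 12820000 reads per library, and 1 read on a transcript of 1 kb was worth 0.211 to 0.3535 TPM, a level scaled to transcript length and depth. The microglial markers C1qa, Csf1r, Cx3cr1 and Fcrls summed to 10840 to 28410 TPM, so the labelled cell type was present in every library. Markers of other cells moved between libraries, and a few did so by much. In library 2 of Saline + MG-REP, 8 neutrophil and monocyte transcripts summed to 4684 TPM, against 83.9 and 322 TPM in libraries 1 and 3. The X-linked RNA Xist stood at 159 to 174 TPM in all MG-REP libraries and at 172 to 193 TPM in all P20 libraries, but at 124 and 140 TPM in the first library of each CTRL group and at 0.1 to 0.3 TPM in the other CTRL libraries. The mixture of sexes therefore differed between the groups that were compared.

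Differences are given on the log2(TPM + 1) scale with their standard error, and a gene was called higher or lower where limma, fitted to all 30 libraries and all 14225 transcripts, gave an adjusted p under 0.05. Genes near 0 TPM have small differences on this scale. Each group held 3 libraries. At P7, P20 and P60, whether those of 1 group shared a litter is not given, so the p-values measure the spread between libraries. For each gene limma used 1 spread shared by all groups, so a standard error does not reflect a wider spread within 1 group. Summed over the 56 genes, the standard deviation was 1249 TPM in Saline + MG-REP, against 21.0 to 382 TPM in the other groups.

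In the fetal and early postnatal brain the mitotic genes stood far above their adult level. Mki67, the antigen Ki-67 that coats mitotic chromosomes, measured 149, 154 and 183 TPM in E17 Saline and 176, 171 and 200.1 TPM in P7 Saline, but 3.84, 3.19 and 2.77 TPM in Saline + CTRL at P60. Ube2c measured 215, 219 and 207 TPM in E17 Saline, 151, 187 and 196 TPM in P7 Saline and 4.16, 2.66 and 0.52 TPM in Saline + CTRL. No library of the fetal or P7 groups came near the adult range for either gene. Ube2c had the largest difference, 6.13 ± 0.35 at E17 (limma, adjusted p = 3.23e-12) and 5.86 ± 0.35 at P7 (limma, adjusted p = 6.36e-12), followed by Mki67 with 5.26 ± 0.24 and 5.43 ± 0.24. In RNA of many cells, a smaller share of dividing cells and less of these RNAs per cell cannot be told apart.

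Of the 56 genes, 53 were higher and 2 lower in E17 Saline than in Saline + CTRL, where 25.4% of all transcripts were called higher and 22.1% lower, and the median difference of the genes was 3.46 against 0.01 over all transcripts. At P7, 52 were higher and 0 lower, against 24.9% and 16.1% of all transcripts, with a median of 3.38. The same holds in MIA offspring, where 52 were higher and 2 lower at E17 (28.8% and 19.3% of all transcripts) and 52 were higher and 2 lower at P7 (25.4% and 16.7%), with medians of 3.44 and 3.57. These 4 comparisons use only 2 adult groups, the E17 and P7 groups of each kind of offspring being set against the same CTRL libraries. Some markers of other cells moved along. The 8 neural progenitor markers summed to 1429 to 2881 TPM in E17 Saline and 1849 to 2412 TPM in P7 Saline, against 541 to 1051 TPM in Saline + CTRL, and the 4 border macrophage markers to 919 to 1238 TPM and 1676 to 1863 TPM, against 329 to 435 TPM. Fabp7 and Vim of the progenitor list were higher in every E17 and P7 Saline library than in Saline + CTRL, whereas Sox2 overlapped. In MIA offspring the sums of both lists were likewise higher in all E17 and P7 libraries than in MIA + CTRL. With the summed markers of other cells as a covariate, a setting chosen after the data had been seen, 51 genes were higher and 2 lower at E17 and 50 higher and 1 lower at P7 in Saline offspring, and the part of each cell type was not tested. The heatmap of all 56 genes shows the young levels as a block of high levels that ends before P20.

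**Figure D1:**
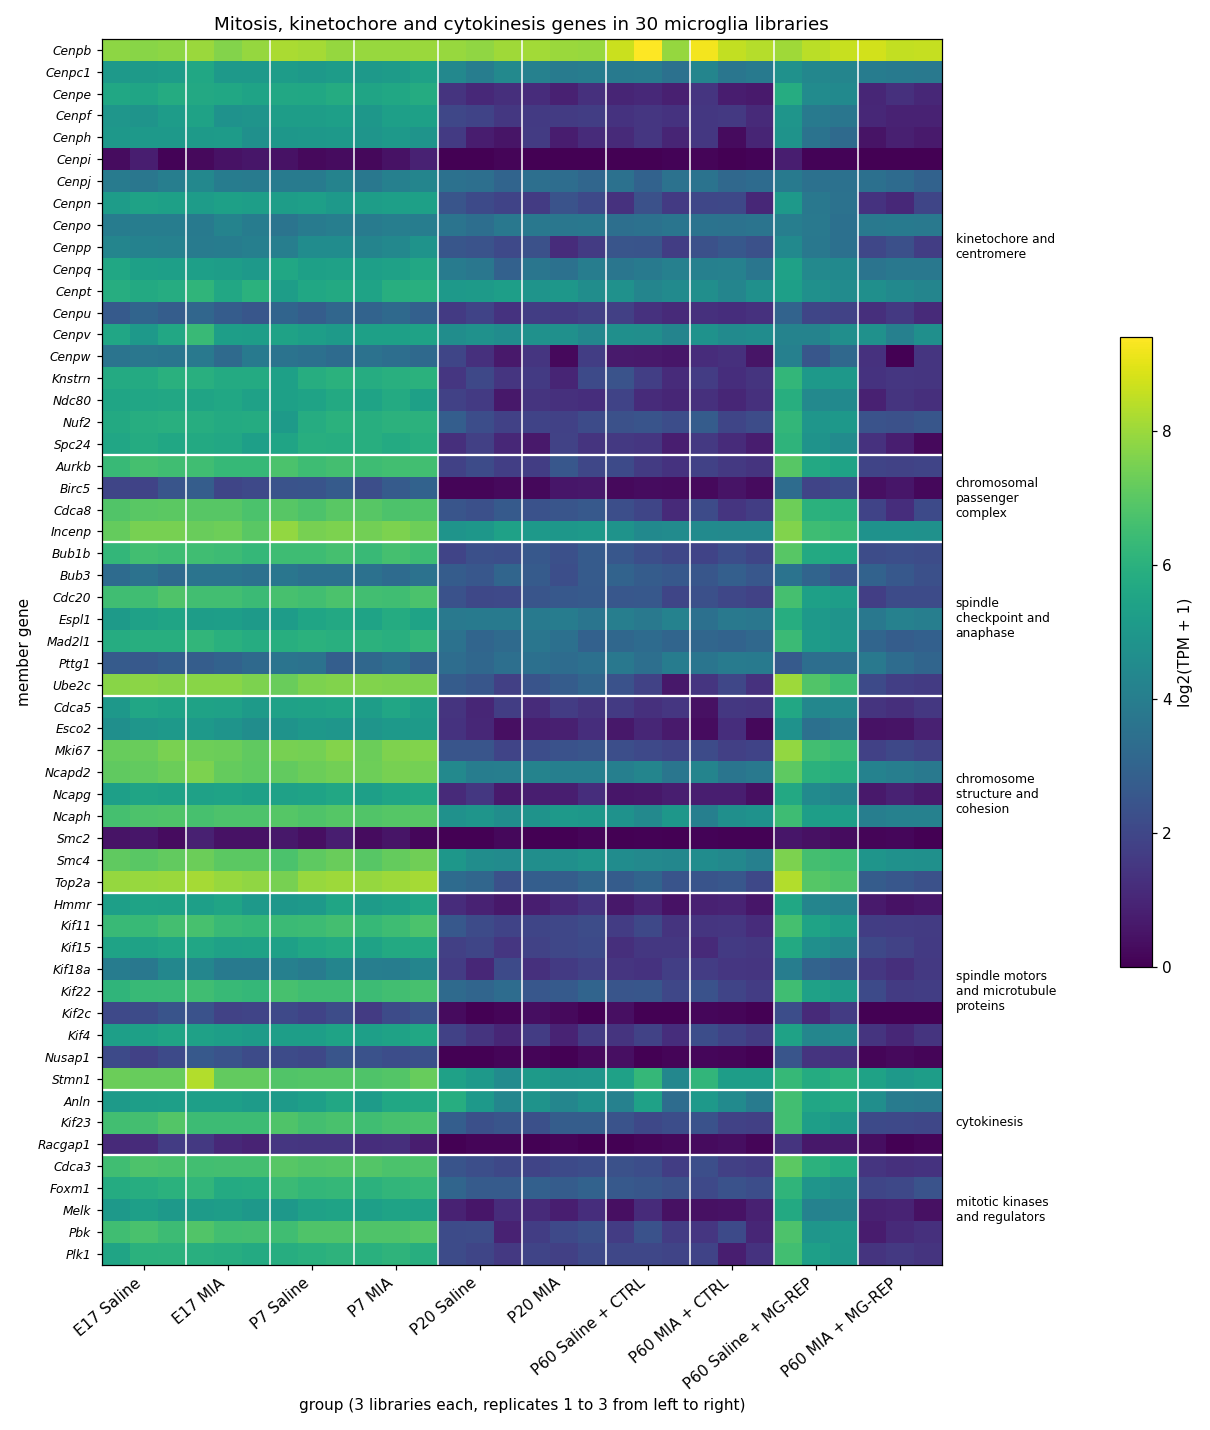
Each row is 1 of the 56 genes, ordered by role, and each column is 1 of the 30 libraries; the colour gives log2(TPM + 1). Most rows are high in the 12 E17 and P7 libraries and in the 3 Saline + MG-REP libraries and low in the other 15, while Cenpb and Pttg1 do not follow that order.

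Every role was represented among the higher genes. The chromosomal passenger complex, which corrects wrong attachments and later sits at the cleavage plane, had 4 of 4 genes higher in E17 Saline and P7 Saline. Its kinase Aurkb measured 81.1, 98.9 and 90.6 TPM in E17 Saline and 3.33, 2.1 and 1.61 TPM in Saline + CTRL, a difference of 4.80 ± 0.27 (limma, adjusted p = 2.69e-12). The scaffold of the complex, Incenp, kept 27.2, 21.2 and 22.4 TPM in Saline + CTRL against 146, 178 and 178 TPM in E17 Saline, so that its difference was 2.78 ± 0.21. Incenp thus had the higher adult level of both, and its E17 libraries still lay above all the adult ones.

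The genes of chromosome structure and cohesion were higher in 9 of 9 cases at both ages, with medians of 3.90 at E17 and 3.99 at P7. Top2a, the topoisomerase that untangles sister chromatids, measured 244, 248 and 256 TPM in E17 Saline and 5.7, 7.17 and 4.38 TPM in Saline + CTRL. Its difference was 5.23 ± 0.28 at E17 and 5.09 ± 0.28 at P7. Ncapg, a condensin subunit, went from 0.48, 0.52 and 0.72 TPM in Saline + CTRL to 38.2, 43.7 and 41.6 TPM in E17 Saline. The motors and microtubule proteins were higher in 9 of 9 cases and the mitotic kinases and regulators in 5 of 5. Plk1, the kinase that runs entry into mitosis, measured 57.1, 62.0 and 67.2 TPM in P7 Saline and 2.96, 2.98 and 2.85 TPM in Saline + CTRL, with a difference of 4.003 ± 0.28. Foxm1, the transcription factor of the G2 phase, differed by 3.83 ± 0.24 at P7, and Kif11, the motor that pushes the spindle poles apart, by 4.76 ± 0.25.

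The spindle checkpoint and anaphase genes were higher in 6 of 7 cases at both ages. Cdc20 measured 99.9, 93.8 and 105 TPM in P7 Saline and 4.84, 5.09 and 2.86 TPM in Saline + CTRL, a difference of 4.28 ± 0.24. Bub1b, a checkpoint kinase of the kinetochore, differed by 4.26 ± 0.23 and Mad2l1, which inhibits Cdc20, by 2.79 ± 0.24. Bub3, which brings Bub1b to the kinetochore, differed by only 0.79 ± 0.22 (limma, adjusted p = 0.00558), and it kept 7.04, 5.71 and 5.05 TPM in Saline + CTRL against 12.04, 10.4 and 10.5 TPM in P7 Saline. All 3 P7 libraries of Bub3 were above the adult ones all the same. The gene of this role that was not higher was Pttg1, securin, which restrains separase until anaphase.

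The kinetochore and centromere genes, a role that took in every gene with a Cenp name, were the most mixed. At E17, 17 of 19 were higher and 1 lower, and at P7, 16 of 19 were higher. The medians were 1.99 and 2.18. The outer kinetochore genes moved with the rest. Ndc80 measured 45.02, 46.99 and 48.4 TPM in E17 Saline and 2.7, 1.25 and 0.99 TPM in Saline + CTRL, a difference of 4.23 ± 0.31, while Nuf2 differed by 3.51 ± 0.28 and Spc24 by 4.37 ± 0.35. Of the genes with Cenp names, Cenpe, a kinesin of the kinetochore, differed by 4.67 ± 0.25 and Cenpf, a large kinetochore protein, by 3.59 ± 0.23. Others differed less, with 0.44 ± 0.14 for Cenpo, 0.56 ± 0.20 for Cenpj and 0.89 ± 0.23 for Cenpv. In cytokinesis, Kif23, a motor of the spindle midzone, differed by 4.47 ± 0.25 at E17, Racgap1, its partner, by 1.199 ± 0.19 and Anln, anillin of the contractile ring, by 0.97 ± 0.40.

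A few rows were too low to carry much. Smc2 reached at most 0.82 TPM, an estimated 18.6 reads, and was at 0 in 7 libraries, Cenpi at most an estimated 10.5 reads with 11 libraries at 0, and Racgap1 at most 29.8 reads with 5 libraries at 0. Birc5, survivin of the passenger complex, reached at most 8.95 TPM, although its partner Aurkb passed 100 TPM in places. Differences of these rows are bounded by the pseudocount and by their few reads. Depth was not low for other genes: in library 1 of Saline + MG-REP, Smc2 had an estimated 10.9 reads and the condensin gene Smc4 had 3410. Each row is 1 RefSeq transcript, so a low row need not show the level of the whole gene.

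Promoter sequence was read from RefSeq on GRCm38.p6, the build of the files, for 48 of the 56 genes, as 49 windows of 300 bases from 250 before to 50 after a transcript start. In 36 of the 49 the start lay within 50 bases of the 5′ end of the gene in RefSeq, in 21 of them at the same base, and in the other 13 up to 3852 bases inside the gene. Mitotic genes are known for 2 promoter elements, the CHR (TTTGAA, or TTCAAA on the other strand) and the CCAAT box (CCAAT, or ATTGG), which were searched on both strands and can share a base. The CHR letters were found in 28 of the 49 windows (57.1%), against 12.1% of the 12494 windows of genes in the table and 17.9% of all 32851 windows. CCAAT was found in 29 windows (59.2%), against 36.9% and 37.4%, and both in 23 (46.9%), against 4.7% and 7.0%. The 120 bases before the start are shown for 4 genes with both elements and for 2 with neither in their window, with the elements in capitals, because the former 4 and Mad2l1 share the pattern of levels described here and Cenpb does not. They are Ube2c (chr2:164769809-164769928, plus strand), Cdc20 (chr4:118437344-118437463, minus strand), Cdca8, the borealin of the passenger complex (chr4:124936918-124937037, minus strand), Kif11 (chr19:37376262-37376381, plus strand), Mad2l1 (chr6:66535101-66535220, plus strand) and Cenpb (chr2:131180068-131180187, minus strand), each written 5′ to 3′ in the direction of the gene, and in each of them the start was the 5′ end of the gene.
Ube2c: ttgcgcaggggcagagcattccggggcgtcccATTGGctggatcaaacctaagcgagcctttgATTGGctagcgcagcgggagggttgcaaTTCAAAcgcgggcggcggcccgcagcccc
Cdc20: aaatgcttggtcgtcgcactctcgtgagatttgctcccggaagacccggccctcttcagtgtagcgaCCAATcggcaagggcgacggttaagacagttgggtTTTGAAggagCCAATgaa
Cdca8: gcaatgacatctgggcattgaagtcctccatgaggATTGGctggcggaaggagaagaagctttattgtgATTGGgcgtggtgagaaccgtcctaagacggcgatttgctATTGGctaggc
Kif11: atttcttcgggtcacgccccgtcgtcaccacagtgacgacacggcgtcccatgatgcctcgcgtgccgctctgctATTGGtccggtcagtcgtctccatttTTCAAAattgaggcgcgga
Mad2l1: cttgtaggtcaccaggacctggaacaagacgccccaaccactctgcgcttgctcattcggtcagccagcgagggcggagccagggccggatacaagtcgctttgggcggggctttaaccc
Cenpb: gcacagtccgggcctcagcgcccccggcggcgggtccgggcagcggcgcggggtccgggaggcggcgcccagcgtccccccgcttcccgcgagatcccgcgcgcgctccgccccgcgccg
The CHR letters began 29 bases before the start in Ube2c, 18 before it in Cdc20 and 19 before it in Kif11, while those of Cdca8 lay after the start and are not among the bases shown. Mad2l1 had neither element and yet differed by 2.72 ± 0.24 between E17 Saline and Saline + CTRL, and Cenpb had neither and was lower by that comparison. A match of letters is a description of the window and was not tested for any effect.

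Between E17 and P7 the levels of the genes were close. The group means of E17 Saline were at a median of 94.5% of those of P7 Saline, from 59.6% to 129%. In neither Saline (3.09% of all transcripts higher and 1.23% lower) nor MIA offspring (1.59% and 0.801%) was any of the 56 genes called by limma. In each, 1 gene had an unadjusted p under 0.05, against 2653 of all transcripts in Saline and 1793 in MIA offspring. The gene with the smallest p was Pttg1 in Saline offspring (0.61 ± 0.23, limma, adjusted p = 0.142) and Smc2 in MIA offspring (-0.27 ± 0.12, limma, adjusted p = 0.359). Without library 3 of P7 Saline, 1 gene was called higher at P7 in Saline offspring.

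By P20 the genes were near their adult level. Mki67 measured 4.56, 4.6 and 2.84 TPM in P20 Saline and 3.69, 4.15 and 4.65 TPM in P20 MIA, and Top2a measured 8.68, 7.65 and 4.06 TPM in P20 Saline. The P20 libraries of both genes overlapped those of Saline + CTRL. Against Saline + CTRL, 1 gene was called higher in P20 Saline and 0 lower, where 2.49% of all transcripts were higher and 1.02% lower, and 7 had an unadjusted p under 0.05. That gene was Kif22, a chromokinesin that pushes chromosomes to the spindle equator, with 8.54, 7.3 and 9 TPM in P20 Saline against 4.61, 4.66 and 3.06 TPM in Saline + CTRL and a difference of 0.87 ± 0.24 (limma, adjusted p = 0.0469). The call for Kif22 was lost when any 1 of the 6 libraries was left out. In MIA offspring, limma called 0 of 56 (1.57% and 1.03% of all transcripts). An unadjusted p under 0.05 was reached by 13 genes and by 2509 of all transcripts. Ube2c had the smallest p (1.16 ± 0.35, limma, adjusted p = 0.0746).

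Levels of the genes were close in MIA and Saline offspring of the same age. Limma called 0 of the 56 genes and 0% of all transcripts in each direction at E17, at P7, at P20 and at P60 on control chow, and an unadjusted p under 0.05 was reached by 0, 1, 1 and 1 of them, against 585, 335, 457 and 256 of all transcripts. The genes with the smallest p were Nusap1, a spindle protein, at E17 (0.40 ± 0.20), Smc2 at P7 (-0.26 ± 0.12), Cenpp at P20 (-0.62 ± 0.27) and Plk1 at P60 (-0.62 ± 0.28), of which none passed the adjustment. The differences of the 56 genes ran from -0.24 to 0.40 at E17, from -0.38 to 0.34 at P7, from -0.62 to 0.41 at P20 and from -0.62 to 0.41 at P60. Mki67 measured 162, 156 and 137 TPM in E17 MIA and 157, 190 and 196 TPM in P7 MIA, and both ranges overlapped those of Saline offspring. A p that misses the threshold does not show equal levels.

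**Figure D2:**
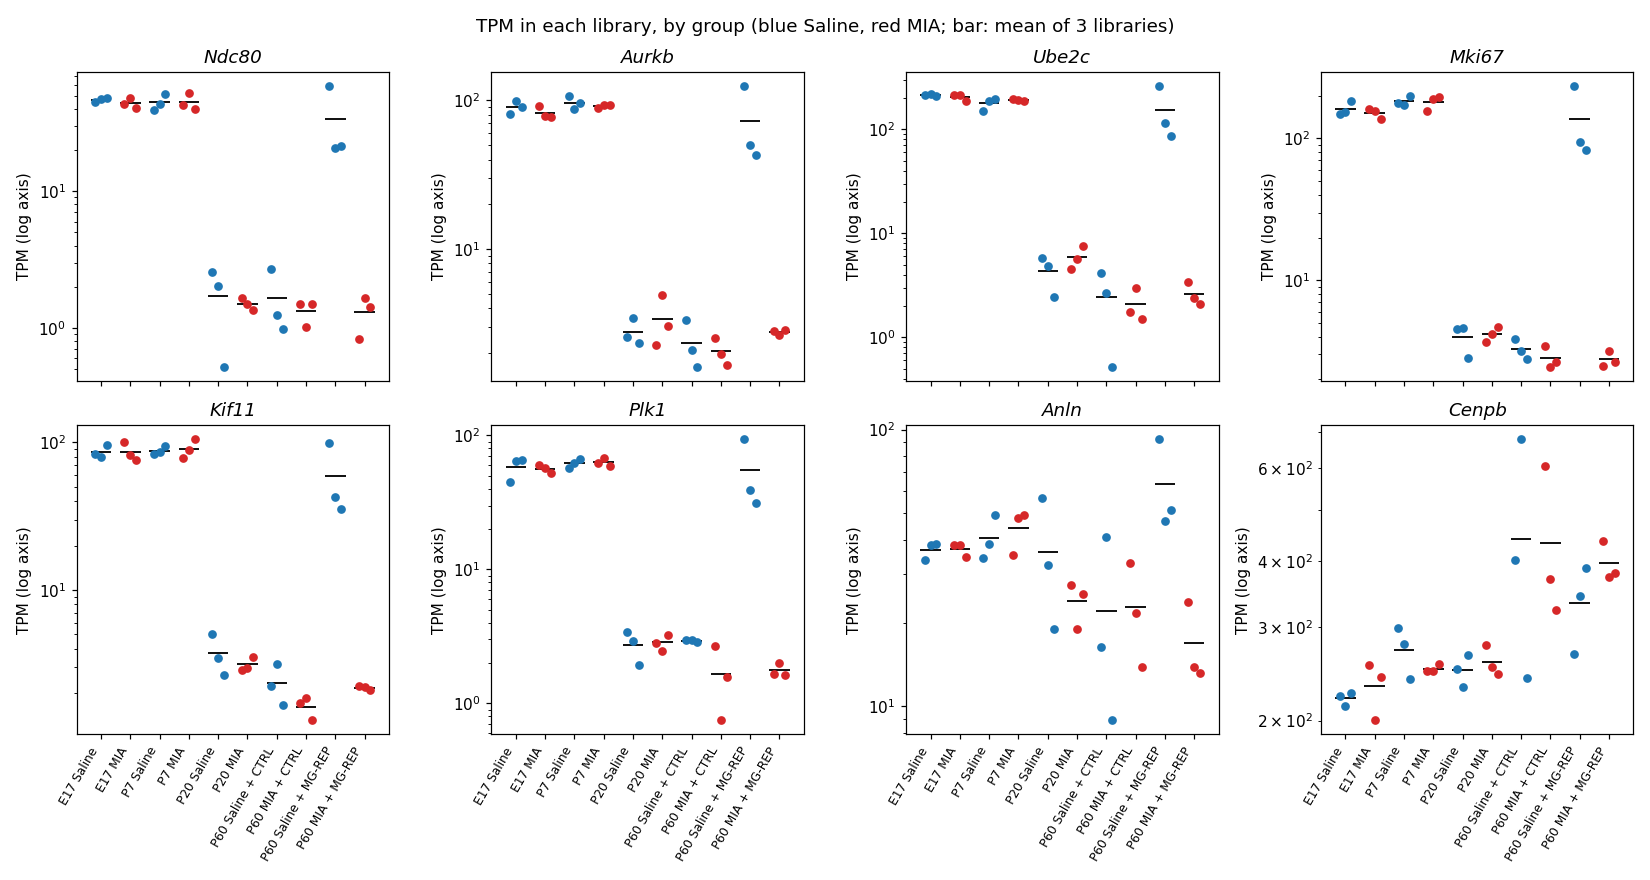
TPM of Ndc80, Aurkb, Ube2c, Mki67, Kif11, Plk1, Anln and Cenpb on a log axis of its own for each gene, with 1 point for each of the 3 libraries of the 10 groups (blue Saline, red MIA) and a bar at their mean. In Saline + MG-REP the points of Mki67 lie at 82.9 to 234 TPM and in MIA + MG-REP at 2.5 to 3.16 TPM.

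After repopulation the genes were high again in Saline offspring. Mki67 measured 234, 93.9 and 82.9 TPM in Saline + MG-REP, Top2a measured 320, 120 and 110 TPM, and Ube2c measured 261, 116 and 85.8 TPM. Every one of these libraries was more than 10 times the highest Saline + CTRL library of its gene. Of the 56 genes, 47 were higher and 0 lower in Saline + MG-REP than in Saline + CTRL, where 11.9% of all transcripts were called higher and 14.9% lower. The median difference was 2.66 against -0.14 over all transcripts. As at E17 and P7, genes low in Saline + CTRL may be in the table only through groups where they are high. Ube2c again had the largest difference (5.50 ± 0.35, limma, adjusted p = 3.13e-11), followed by Mki67 (4.86 ± 0.24), Cdca8 (4.63 ± 0.29), Top2a (4.61 ± 0.28) and Aurkb (4.33 ± 0.27). The 2 Saline + CTRL libraries with little Xist and the 1 with Xist had 2.77 to 3.19 and 3.84 TPM of Mki67. With Xist as a covariate 44 genes were called, against 47 without it. Only 1 library of Saline + CTRL had Xist, and the part of sex in the result was not tested.

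By role, the higher genes were 4 of 4 in the chromosomal passenger complex, 9 of 9 in chromosome structure and cohesion, 8 of 9 in motors and microtubule proteins, 5 of 5 in mitotic kinases and regulators, 3 of 3 in cytokinesis, 5 of 7 in checkpoint and anaphase and 13 of 19 in kinetochore and centromere. The role medians ran from 1.67 in cytokinesis and 1.70 in kinetochore and centromere, through 2.34 in checkpoint and anaphase, to 3.22 in both chromosome structure and motors, 3.26 in the passenger complex and 3.70 in the kinases and regulators. Among the kinetochore genes, Ndc80 measured 58.9, 20.5 and 21.3 TPM in Saline + MG-REP and rose by 3.59 ± 0.31, Spc24 by 3.89 ± 0.35, Nuf2 by 3.06 ± 0.28, Cenpe by 3.98 ± 0.25 and Cenpf by 2.72 ± 0.23. All of these adult libraries after repopulation lay above the control ones. The 9 genes not called were Pttg1, Cenpb, Cenpv, Cenpo, Bub3, Cenpj, Cenpi, Cenpt and Stmn1, with differences from -0.57 ± 0.23 for Pttg1 (limma, adjusted p = 0.0734) to 0.70 ± 0.34 for Stmn1 (limma, adjusted p = 0.137). The low rows rose by small amounts, 0.41 ± 0.12 in Smc2 and 0.77 ± 0.19 in Racgap1, and both calls were lost without library 1 of Saline + MG-REP.

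The 3 Saline + MG-REP libraries were not alike. Library 1 held the highest level of 53 of the 56 genes, with a median of 2.36 times library 2 (quartiles 1.98 and 2.52) and 2.61 times library 3 (quartiles 2.08 and 2.84), while library 2 was at 1.08 times library 3. Over all transcripts, library 1 was not the higher one, its median log2(TPM + 1) being 3.53 against 3.88 and 3.87. Summed over the 56 genes, the libraries held 4184, 2073 and 1974 TPM. Beside them, the 4 border macrophage markers summed to 1183, 604 and 595 TPM, in the same order. The chemokine Pf4 of that list measured 901, 422 and 408 TPM, above the 156, 133 and 122 TPM of Saline + CTRL. Mrc1 of the same list measured 241, 160 and 158 TPM and overlapped Saline + CTRL, with 212, 197 and 176 TPM. The 8 neural progenitor markers summed to 1592, 1121 and 1068 TPM, again highest in library 1 and above the 541 to 1051 TPM of Saline + CTRL. Most of that sum was Vim, vimentin, which many cell types make, with 1403, 829 and 750 TPM, while the progenitor markers Sox2 (16.4, 54.6 and 79.5 TPM) and Fabp7 (21.3, 77.5 and 97.7 TPM) were lowest in library 1. Neutrophil and monocyte transcripts were lowest in library 1, where the defining marker Elane was at 0, and neuron markers (59.5, 187 and 253 TPM), oligodendrocyte markers (289, 530 and 631 TPM) and endothelial markers (265, 550 and 426 TPM) were also lowest there. The microglial markers summed to 15776, 17428 and 17156 TPM. The part of these cells in the result was not tested. The count of called genes against Saline + CTRL stayed between 43 and 49 when any 1 library was left out.

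The repopulated microglia of Saline offspring were then set against the fetal and early postnatal microglia, in which these genes are also high. Their mean levels were at a median of 72.9% of those of E17 Saline, from 43.3% to 172%, and at 69.8% of those of P7 Saline, from 46.1% in Ncaph to 156% in Anln. Against E17 Saline, 0 genes were higher and 22 lower, where 13.6% of all transcripts were higher and 24.6% lower, and the median difference was -0.56 against -0.13 over all transcripts. Against P7 Saline, 0 were higher and 24 lower, where 11.3% were higher and 27.3% lower, and the median difference was -0.58 against -0.18. An unadjusted p under 0.05 was reached by 29 and 31 genes. The plot of MG-REP levels as a percentage of P7 shows libraries 2 and 3 of Saline + MG-REP below 100% in most genes and library 1 on either side of it.

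**Figure D3:**
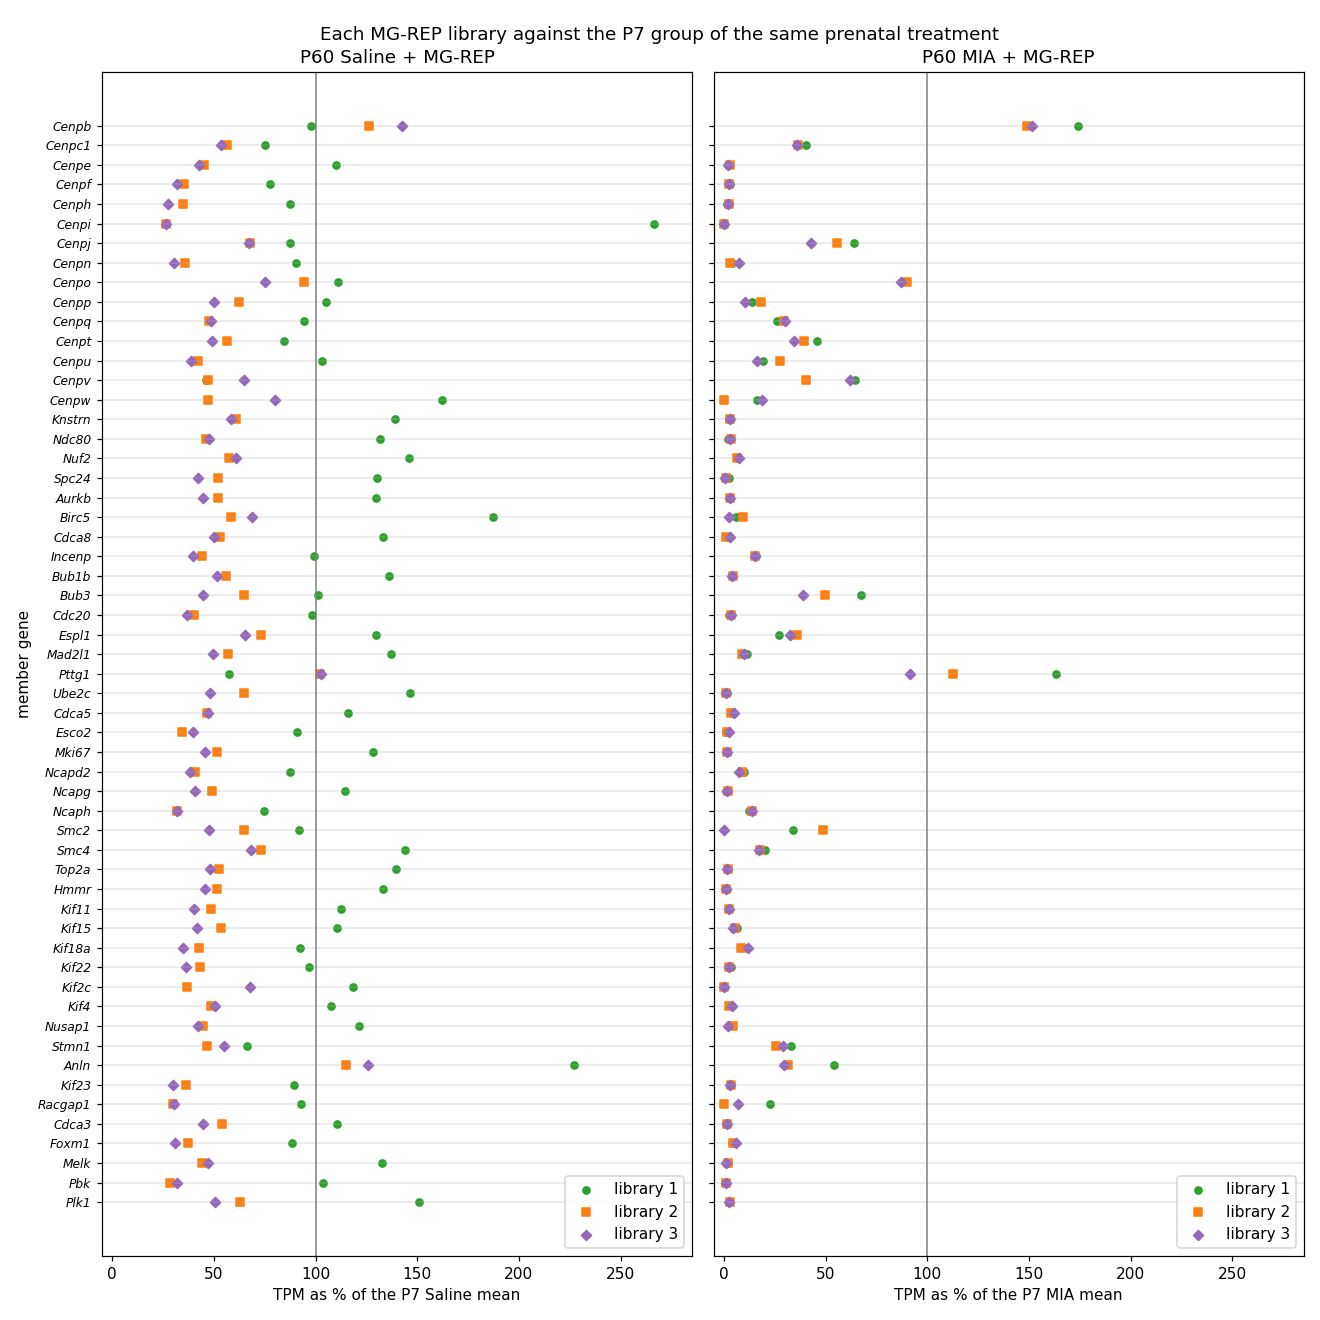
For each of the 56 genes (rows, ordered by role), the points give the TPM of libraries 1, 2 and 3 of Saline + MG-REP as a percentage of the P7 Saline mean (left panel) and of MIA + MG-REP as a percentage of the P7 MIA mean (right panel), with a line at 100%. In the left panel library 1 lies to the right of libraries 2 and 3 in 53 genes, and in the right panel most genes lie near 0.

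Ncaph, a condensin subunit, was the gene that fell most from P7 Saline, with 121, 113 and 122 TPM there and 88.9, 37.7 and 37.8 TPM in Saline + MG-REP, and with a difference of -1.22 ± 0.22 (limma, adjusted p = 0.000124). All 3 libraries after repopulation were below all 3 at P7. Kif23 measured 113, 96.4 and 103 TPM in P7 Saline and 93.3, 37.6 and 30.9 TPM in Saline + MG-REP (-1.10 ± 0.25, limma, adjusted p = 0.00144). Foxm1 measured 84.3, 74.6 and 76.6 TPM and then 69.6, 29.4 and 24.2 TPM (-1.07 ± 0.24, limma, adjusted p = 0.00107). Library 1 of both genes was nearer to the P7 libraries than libraries 2 and 3 were. Also lower were Cdc20 (-0.91 ± 0.24), Cenpf (-1.12 ± 0.23), Incenp (-0.83 ± 0.21), Kif11 (-0.72 ± 0.25), Cenpe (-0.72 ± 0.25) and Ncapg (-0.68 ± 0.26).

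The genes not called against P7 Saline include Mki67 (-0.57 ± 0.24, limma, adjusted p = 0.0659), Top2a (-0.48 ± 0.28), Ube2c (-0.36 ± 0.35), Plk1 (-0.34 ± 0.28), Bub1b (-0.44 ± 0.23), Aurkb (-0.56 ± 0.27), Ndc80 (-0.57 ± 0.31), Smc4, a condensin ATPase (-0.14 ± 0.20) and Birc5 (-0.08 ± 0.27). Against E17 Saline, the largest fall was in Stmn1, stathmin, which destabilises microtubules and is abundant in neurons as well (-1.21 ± 0.34, limma, adjusted p = 0.00667), followed by Cenpn (-1.20 ± 0.33), Cenph (-1.18 ± 0.33), Kif23 (-1.07 ± 0.25), Cenpv (-1.07 ± 0.23) and Ncaph (-1.06 ± 0.22). By role, the genes lower against P7 were 9 of 19 kinetochore and centromere genes, 1 of 4 of the passenger complex, 1 of 7 of checkpoint and anaphase, 4 of 9 of chromosome structure, 4 of 9 motors and microtubule proteins, 2 of 3 of cytokinesis and 3 of 5 kinases and regulators. Against E17 they were 8, 1, 1, 3, 6, 1 and 2 in the same order of roles.

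How many genes were called lower depended on single libraries. Without library 1 of Saline + MG-REP, 45 genes were lower than in P7 Saline and 45 lower with 2 higher than in E17 Saline. Without library 2 the counts were 12 and 10, and without library 3 they were 9 and 7. Leaving out library 1 or library 3 of E17 Saline gave 14 and 12 genes lower than in E17 Saline. By themselves, libraries 2 and 3 lay below all 3 E17 Saline libraries in 50 and 50 of the 56 genes, as did 44.4% and 45.3% of all transcripts, and below all 3 P7 Saline libraries in 51 and 53 genes, as did 46.9% and 46.7%. Library 1 lay above all 3 E17 Saline libraries in 35 genes, as did 27.4% of all transcripts, and above all 3 P7 Saline libraries in 26 genes, as did 23.5%. Scaling the libraries by the median ratio of their values, which brings the median of all transcripts near 0, left 11 genes lower and 1 higher against E17 Saline and 10 lower and 1 higher against P7 Saline, the higher gene being Cenpb in both. With only the compared groups in the fit, 5 genes were lower and 1 higher against E17 Saline and 5 lower against P7 Saline. The share of all transcripts called under these changed fits was not counted. A change in these genes therefore cannot be told apart from a change over all transcripts.

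In MIA offspring the same chow was followed by no such level at P60. Mki67 measured 2.5, 3.16 and 2.65 TPM in MIA + MG-REP and 3.43, 2.45 and 2.67 TPM in MIA + CTRL, Top2a measured 5.63, 4.88 and 4.09 TPM against 4.47, 4.95 and 3.09 TPM, and Ube2c measured 3.38, 2.37 and 2.08 TPM against 1.77, 2.98 and 1.51 TPM. The libraries of both groups overlapped in all 3 genes. Limma called 0 of the 56 genes higher and 0 lower, where 0.387% and 0.169% of all transcripts were called. An unadjusted p under 0.05 was reached by 882 of all transcripts and by 3 of the 56 genes. The 3 were Kif4, a chromosome-bound kinesin (-0.61 ± 0.26, limma, adjusted p = 0.665), Cdca3, a mitotic entry factor (-0.51 ± 0.22), and Smc4 (0.43 ± 0.20). The median difference was -0.03 against -0.08 over all transcripts. No count above 0 was reached with any 1 library left out or under any other setting tried.

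Set against the young MIA microglia, the repopulated MIA microglia were at a median of 4.64% of the level at E17 and 4.49% of that at P7. Against E17 MIA, 53 genes were lower and 1 higher, where 31.7% of all transcripts were lower and 17.7% higher, with a median difference of -3.49. Against P7 MIA, 52 were lower and 1 higher, where 28.1% were lower and 14.7% higher, with a median of -3.67. Ube2c fell most from E17 (-5.84 ± 0.35, limma, adjusted p = 5.75e-12), and Pbk, a mitotic kinase, fell most from P7, from 111, 112 and 119 TPM to 0.64, 1.19 and 1.47 TPM (-5.80 ± 0.37, limma, adjusted p = 1.73e-11). No library of these 2 genes overlapped between the groups. The higher gene was Cenpb in both comparisons (0.77 ± 0.24 against E17 and 0.66 ± 0.24 against P7).

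The difference between the 2 MG-REP effects was tested directly, as the MG-REP effect in MIA minus that in Saline offspring. It was called negative in 45 of the 56 genes and positive in 0, where 6.09% of all transcripts were called negative and 4.42% positive, and its median was -2.78 against 0.04 over all transcripts. The largest was Ube2c (-5.26 ± 0.50, limma, adjusted p = 1.41e-07), followed by Mki67 (-4.89 ± 0.34), Cdca3 (-4.71 ± 0.32), Cdca8 (-4.65 ± 0.41) and Top2a (-4.42 ± 0.40). By role it was called in 12 of 19 kinetochore and centromere genes, 4 of 4 of the passenger complex, 5 of 7 of checkpoint and anaphase, 8 of 9 of chromosome structure, 8 of 9 motors and microtubule proteins, 3 of 3 of cytokinesis and 5 of 5 kinases and regulators. All 6 MG-REP libraries had Xist in a like range, and the microglial markers summed to 22075 to 24376 TPM in MIA + MG-REP against 15776 to 17428 TPM in Saline + MG-REP. Border macrophage markers summed to 193 to 295 TPM in MIA + MG-REP, below the 595 to 1183 TPM in Saline + MG-REP. Neural progenitor markers also had a lower sum there, at 788 to 853 TPM against 1068 to 1592 TPM. In that list Vim measured 512, 510 and 420 TPM in MIA + MG-REP against 1403, 829 and 750 TPM in Saline + MG-REP. Sox2 (66.9, 41.8 and 76.2 TPM against 16.4, 54.65 and 79.45 TPM) and Fabp7 (101, 57.2 and 124 TPM against 21.3, 77.5 and 97.7 TPM) overlapped between these groups. Endothelial markers were higher in MIA + MG-REP, at 782 to 1026 TPM against 265 to 550 TPM. The part of each list in the difference was not tested, and with the summed markers of other cells as a covariate 44 genes were called. Between 40 and 45 genes were called when any 1 library was left out, and 39 with only the 4 P60 groups in the fit, and Racgap1, Ncaph and Anln were among those then lost.

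**Figure D4:**
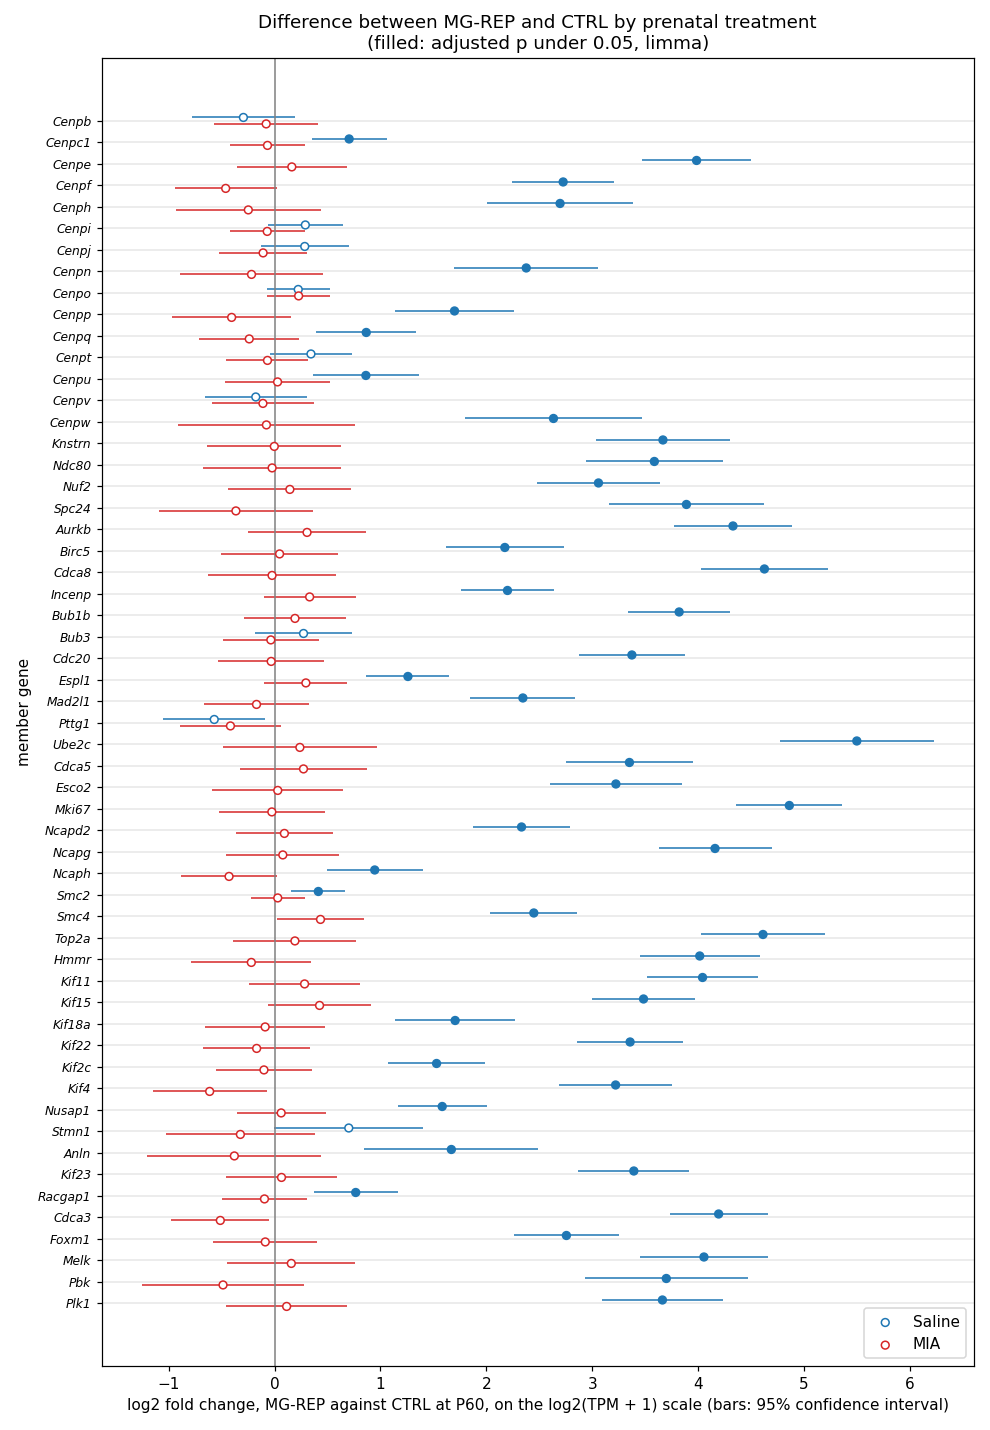
The difference between MG-REP and CTRL at P60 on the log2(TPM + 1) scale (horizontal axis) for each of the 56 genes (rows, ordered by role), in Saline (blue) and MIA offspring (red), with 95% confidence intervals as bars and filled points where limma gave an adjusted p under 0.05. The Saline points run from -0.57 to 5.50 and the MIA points, none of them filled, from -0.61 to 0.43.

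A few genes did not keep to the order of the rest. Cenpb, which binds a DNA box in centromeric repeats, was high in all groups, at 223, 213 and 225 TPM in E17 Saline, at 403, 680 and 241 TPM in Saline + CTRL and at 267, 344 and 388 TPM in Saline + MG-REP. Its adult control libraries spread widely, from 241 to 680 TPM. It was lower in E17 Saline than in Saline + CTRL (-0.87 ± 0.24, limma, adjusted p = 0.00401), whereas the difference at P7 was not called (-0.57 ± 0.24). The 8 oligodendrocyte transcripts were highest in the same Saline + CTRL library, with 626, 1501 and 398 TPM, and among MIA + CTRL libraries both were highest in library 1, with 606, 371 and 324 TPM of Cenpb and 1324, 802 and 514 TPM of oligodendrocyte transcripts. Their part in the level of Cenpb was not tested.

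Pttg1, securin, was lowest in the fetus, with 5.5, 5.18 and 5.96 TPM in E17 Saline, 11.2, 10.8 and 6.01 TPM in P7 Saline and 12.7, 9.77 and 14.7 TPM in Saline + CTRL. It was lower in E17 Saline than in Saline + CTRL (-1.01 ± 0.23, limma, adjusted p = 0.000933) and lower in both young MIA groups than in MIA + CTRL (-0.82 at E17 and -0.66 at P7). In Saline + MG-REP it measured 5.37, 9.5 and 9.55 TPM, so that library 1, the highest in 53 genes, was the lowest in Pttg1. Its target separase, Espl1, took the order of the other genes, with 56.8, 32.0 and 28.4 TPM in Saline + MG-REP and 15.4, 12.99 and 16.9 TPM in Saline + CTRL.

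Anln was the gene with the highest level in Saline + MG-REP relative to P7 Saline. It measured 92.3, 46.7 and 51.2 TPM in Saline + MG-REP, 34.3, 38.5 and 49.2 TPM in P7 Saline and 16.4, 40.9 and 8.92 TPM in Saline + CTRL. It rose over Saline + CTRL by 1.67 ± 0.40 (limma, adjusted p = 0.00264), while its differences from P7 Saline (0.58 ± 0.40) and E17 Saline (0.70 ± 0.40) were not called. Anln is also made by myelinating oligodendrocytes, and in P20 Saline it measured 56.6, 32.5 and 19.0 TPM beside oligodendrocyte sums of 3556, 1948 and 1322 TPM, in the same order. In Saline + CTRL those sums were 626, 1501 and 398 TPM, in the order of Anln. MIA + CTRL had sums of 1324, 802 and 514 TPM beside 32.9, 21.8 and 13.9 TPM of Anln, also in the same order. In Saline + MG-REP the sums were 289, 530 and 631 TPM, the lowest standing beside the highest Anln. With the summed markers of other cells as a covariate, a setting chosen after the data had been seen, Anln rose by 1.53 (limma, adjusted p = 0.00224). That sum takes in all lists of other cells and does not single out oligodendrocytes. With only the compared groups in the fit the call was lost (limma, adjusted p = 0.0878). The part of oligodendrocytes in the level of Anln was not tested.

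Stmn1 measured 155, 150.2 and 147 TPM in E17 Saline, 114, 118 and 118 TPM in P7 Saline, 40.7, 75.5 and 19.5 TPM in Saline + CTRL and 77.1, 54.5 and 63.8 TPM in Saline + MG-REP. Saline + MG-REP thus lay below all young libraries and overlapped the control ones. In E17 MIA it measured 320, 142 and 140.4 TPM, and the 9 neuron transcripts (7 genes) summed to 1368, 233 and 244 TPM in the same libraries. In both, library 1 was the highest. In Saline + CTRL the neuron sums were 216, 289 and 96.0 TPM, in the order of Stmn1, but in Saline + MG-REP the lowest neuron sum, 59.5 TPM in library 1, stood beside the highest Stmn1. Their part in these levels was not tested. Cenpv, Cenpo, Cenpj and Bub3, which kept much of their level in the adult control libraries, differed by -0.18 ± 0.23, 0.22 ± 0.14, 0.28 ± 0.20 and 0.27 ± 0.22 between Saline + MG-REP and Saline + CTRL and were not called. Cenpo was at 14.5, 15 and 14.9 TPM in E17 Saline and at 9.8, 10.5 and 11.7 TPM in Saline + CTRL, a narrow range over development.

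Other genes of mitosis were counted as a second list of 59 transcripts of 57 symbols that share none with the 56. Of these, 52 were higher and 1 lower in E17 Saline, and 55 higher and 1 lower in P7 Saline, than in Saline + CTRL, where 25.4% and 22.1% of all transcripts were higher and lower at E17 and 24.9% and 16.1% at P7. In P20 Saline, 1 was higher and 0 lower (2.49% and 1.02% of all transcripts). In Saline + MG-REP, 43 were higher and 1 lower than in Saline + CTRL (11.9% and 14.9%), with a median of 1.80, led by Ckap2l, a spindle protein (4.08 ± 0.26), Fam64a (4.02 ± 0.29) and Dlgap5, which stabilises spindle fibres (3.90 ± 0.27). The one that fell was Numa1, a spindle pole and nuclear matrix protein (-0.43 ± 0.13, limma, adjusted p = 0.0157). The cohesin genes Smc1a, Smc3, Rad21, Stag1 and Stag2, which also act in interphase, were not called there. Against E17 Saline, 22 of the 59 were lower, where 24.6% of all transcripts were, and against P7 Saline 38, where 27.3% were, with Ckap2 the most (-1.39 ± 0.25). In MIA + MG-REP, 0 of 59 were called by limma against MIA + CTRL (0.387% and 0.169% of all transcripts). An unadjusted p under 0.05 was reached by 0 of them and by 882 of all transcripts. The difference of the MG-REP effects was called negative in 37, as in 6.09% of all transcripts.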

How the data were processed

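The deposited values are TPM, computed by the authors for 14225 transcripts in 30 libraries, and the formula is not given in the sources used here. Before that, the authors had prepared poly(A) libraries without strand information, placed 40-base single-end reads on mm10 with Rsubread, assigned them to UCSC genes with featureCounts and dropped genes below a CPM minimum. A gene stayed if as many libraries as a group holds reached that minimum. Because no counts were used, no count model was fitted, and depth was read from the spacing of low TPM, where 70.5% to 75.9% of values came within 0.2 of a whole read (40% by chance), with lengths found for 98.45% of transcripts.

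In R 4.3.3, limma 3.58.1 was fitted to log2(TPM + 1) with all 10 groups in 1 model, a mean-variance trend and 19 two-sided contrasts, adjusted by Benjamini-Hochberg over all transcripts at 0.05, with no filter. The fit was tested on simulated data in which a gene had the same spread in all groups. That test does not cover groups of unequal spread, such as Saline + MG-REP. The genes and lists were chosen with earlier results of these data known, as were the genes named: a list covering every role, and in each comparison the largest rise and fall among the called genes or the smallest p where none was called. Other genes named were chosen after their values had been seen. Summaries used Python 3.11.15 with numpy 2.4.6. The reading direction of the promoter windows was checked on GENCODE transcripts, of which 25 bases at the start were found in 44 of 49 windows, and their distance from the 5′ end of the RefSeq gene was computed.

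Other settings were a pseudocount of 0.1, a minimum mean TPM of 1, median-ratio and quantile scaling, the replicate number as a block, Xist as a covariate, the compared groups alone and each library left out, and, added after seeing the data, markers of other cells as a covariate. Libraries with the same number had r = 0.238, 0.104 and 0.132 over transcripts between P20 Saline and P20 MIA. Between E17 Saline and E17 MIA r was 0.404, 0.656 and 0. The block gave 0 called genes between P20 MIA and P20 Saline, as did the fit without it. 1 marker of the microglial list is not reported here and was left out of its sum.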

Additional observations from a re-analysis of the deposited data

Results flagged for a closer look

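The MG-REP effect differed between Saline and MIA offspring by the test of that difference, and values are given here for the genes among these that the rule for named genes covers. The count was 45 of the 56 genes, all with a smaller effect in MIA offspring. Chromosome genes gave -4.89 for Mki67, -4.42 for Top2a, -4.08 for Ncapg, -2.01 for Smc4 and -1.38 for Ncaph (log2(TPM + 1) scale). Checkpoint, anaphase and passenger genes gave -5.26 for Ube2c, -4.02 for Aurkb, -3.63 for Bub1b, -3.41 for Cdc20, -2.52 for Mad2l1, -2.13 for Birc5 and -1.87 for Incenp. Kinetochore genes gave -4.25 for Spc24, -3.82 for Cenpe, -3.61 for Ndc80, -3.19 for Cenpf, -2.91 for Nuf2 and -2.10 for Cenpp. Motors and spindle genes gave -3.83 for Kif4, -3.76 for Kif11, -3.53 for Kif22 and -1.52 for Nusap1. Kinases and regulators gave -4.19 for Pbk, -3.55 for Plk1 and -2.84 for Foxm1, and cytokinesis genes -3.33 for Kif23, -2.05 for Anln and -0.86 for Racgap1.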

How the results depend on the processing

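Of 272 recomputed counts of called genes, 244 stayed within 1.5 times the first. Of 15175 recomputed values of single genes, 14716 kept their side of the threshold, 364 lost and 95 gained the call. Among values called in the first or the recomputed fit, 0 changed direction. Values called in neither fit were counted as kept whatever their direction. Saline + MG-REP against E17 Saline (22 genes) gave 12 with median-ratio scaling, 6 with only the compared groups and 7 to 47 with 1 library left out; against P7 Saline (24 genes) it gave 11 with median-ratio scaling, 15 with quantile normalization, 5 with only the compared groups and 9 to 45 with 1 library left out. P20 Saline against Saline + CTRL (1 gene) gave 2 with the filter, 2 with quantile normalization (1 higher and 1 lower), 2 with the replicate block, 0 with Xist as a covariate, 0 with only the compared groups and 0 to 1 with 1 library left out. P20 MIA against MIA + CTRL (0 genes) gave 2 with quantile normalization, 1 with the replicate block, 1 with only the compared groups and 2 with the markers of other cells as a covariate, which was chosen after seeing the data. P7 Saline against E17 Saline (0 genes) gave 0 to 1 with 1 library left out. The causes were not tested, and the share of all transcripts called under these settings was not counted. Paired libraries share only a number, with correlations such as 0.404, 0.656 and 0.000 for E17 Saline and E17 MIA. For Saline + MG-REP the replicate block gave 18 genes against E17 Saline and 24 against P7 Saline. Apart from the counts named above, it changed none by over 1.5 times. Rows of few reads, such as Smc2, Cenpi and Racgap1, each stand for 1 RefSeq transcript and need not show the level of the whole gene.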
